A study of Mus musculus with 6 samples.

Results

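The genes described here are 36 mouse genes of peroxisome biogenesis and ether lipid synthesis. They were chosen by symbol and comprise the peroxins, the ether lipid enzymes, the peroxisomal oxidation enzymes and proteins of the peroxisomal membrane. All 36 had a row among the 19078 genes of the deposited table. *Pex2* and *Eci2* were listed there by their older symbols, *Pxmp3* and *Peci*, and the other 34 by the symbols used here. The RNA came from MF cells, immortalized mouse fibroblasts, with 3 libraries of *Ms4a15* OE cells and 3 of control cells. *Ms4a15* OE cells are a pool, not a clone, in which a lentiviral guide directs CRISPR activation to *Ms4a15*, a gene of an endoplasmic reticulum protein. The control cells are given as wild type in the labels, and the methods of the study describe them as infected with empty lentivirus. According to the study's methods, the line behind both groups came from male mouse embryos, is conditional *Gpx4* -/- and expresses Cre-ERt2, a recombinase that acts once tamoxifen is added. *Gpx4* encodes a peroxidase of lipid hydroperoxides. The labels name no tamoxifen or other treatment for the 6 libraries.

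The level reported for each gene is the authors' mean over all 6 libraries of the counts divided by library size factors, so it pools *Ms4a15* OE with control. The group values in the table are the authors' own comparison and were not used here. How these genes differ between *Ms4a15* OE and control is therefore not reported, and no SD between replicates can be given for any level. Intervals below are 95% exact Poisson intervals on the counts summed over the 6 libraries and cover counting error only. Levels with overlapping intervals may still differ beyond counting error. In RNA from whole cultures, fewer cells with a transcript and less transcript per cell cannot be told apart.

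Peroxisomes are organelles that oxidize very long and branched fatty acids, break down hydrogen peroxide and carry out the opening steps of ether lipid synthesis. Their matrix enzymes are made in the cytosol and brought in folded by a soluble receptor, PEX5, which recognizes a short signal at the end of the protein, the peroxisomal targeting signal type 1 (PTS1). A smaller set of enzymes carries a signal near the start of the protein (PTS2), which is recognized by PEX7. Ether lipids, among them the plasmalogens, are phospholipids whose chain at the *sn*-1 position is held by an ether bond, and fibroblasts from patients with peroxisome defects are known to lack them.

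The coding sequences of all 36 genes were read from the GENCODE M21 transcripts (GRCm38), since the signals at the end of the protein tie these enzymes to their receptor. Of the 19 matrix and ether lipid enzymes, 8 ended in a strict PTS1, meaning serine, alanine or cysteine, then lysine, arginine or histidine, then leucine. This is 42.1% of the enzymes, against 0 of the 17 peroxins and membrane proteins and 0.461% of 15412 genes of the table with a coding sequence. The last 6 codons of 7 of the 8 genes, stop codon included, are shown with the codons of the PTS1 in capitals, because these letters are what the import receptor reads in the protein.
Gnpat, chr8:124889298-124889315, plus strand: gccactGCAAAACTAtaa
Scp2, chr4:108044750-108044767, minus strand: ggcaaaGCTAAGCTGtga
Decr2, chr17:26082876-26082893, minus strand: ttctctGCTAAGCTGtag
Pecr, chr1:72259348-72259365, minus strand: aagaaaGCCAAGCTCtaa
Ech1, chr7:28832091-28832108, plus strand: accttcTCCAAGCTCtga
Ehhadh, chr16:21762084-21762101, minus strand: catagcAGCAAACTGtga
Crot, chr5:8966852-8966869, minus strand: aacaccGCTCATCTTtag

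Alanine-lysine-leucine was the most frequent of these ends, in 5 genes, *Gnpat*, *Scp2*, *Decr2*, *Pecr* and *Hsd17b4*, and the codons of *Scp2* and *Decr2* were identical. Serine-lysine-leucine, the form in which the signal was first described, ended 2 proteins, those of *Ehhadh* and *Ech1*. *Crot* alone ended in alanine-histidine-leucine. A wider form allowed proline, threonine and asparagine at the start, asparagine, serine and glutamine in the middle, and methionine and isoleucine at the end. With it, 14 of the 19 enzymes (73.7%) matched, against 2.49% of all genes with a coding sequence. The 6 genes this added are shown for the residues by which they depart from the strict form, again with the codons of the last 3 residues in capitals.
Cat, chr2:103454756-103454773, minus strand: ggaaaaGCTAACCTGtaa
Amacr, chr15:10995232-10995249, plus strand: ctaaaaGCCAATCTCtga
Acox3, chr5:35612117-35612134, plus strand: ctaaagTCCCAGCTGtag
Eci2, chr13:34977911-34977928, minus strand: agaaaaCCAAAGCTGtga
Hacl1, chr14:31608011-31608028, minus strand: acccgtTCTAACATGtga
Ephx2, chr14:66084682-66084699, minus strand: gtgaccTCCAAGATTtag

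*Cat* and *Amacr* both ended in alanine-asparagine-leucine, with asparagine in place of a basic residue. *Acox3* carried glutamine at the same position. *Eci2* began its last 3 residues with proline, and *Hacl1* and *Ephx2* ended in methionine and isoleucine in place of leucine. The 5 enzymes without either form were *Agps*, *Acaa1a*, *Phyh*, *Far1* and *Far2*.

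The pattern searched for PTS2 was arginine or lysine, then leucine, valine, isoleucine or glutamine, then 5 of any residue, then histidine or glutamine, then leucine, alanine or phenylalanine. It was found within the first 40 residues in 5 of the 36 proteins (13.9%), against 1.16% of all genes with a coding sequence. Within the first 60 residues it was found in 7 (19.4%), against 1.97% of all genes with a coding sequence. *Acaa1a* and *Phyh* are known PTS2 enzymes, and so is *Agps*, whose match lay at residues 50 to 58 and so outside the shorter window. The 27 bases that encode the match in these 3 genes are shown with the codons of the 4 fixed positions in capitals.
Acaa1a, chr9:119341521-119341547, plus strand: CGGCTGcaggtagtgctgggcCACCTG
Phyh, chr2:4919094-4919120, plus strand: CGGCTGcaggtccttctgggaCACCTC
Agps, chr2:75832360-75832386, plus strand: CGGCTGcgggttctgtcgggcCATCTG

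All 3 read arginine-leucine, 5 variable residues and histidine-leucine. The other matches in the first 40 residues were in *Pex11a*, *Far2* and *Eci2*, and *Pex11g* matched at residues 48 to 56. A match describes letters in a sequence and not a working signal.

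Most of the 36 genes were detected well above single reads in these cells. At or above a mean of 1 normalized count stood 34 of them, or 94.4%, against 83.8% of all genes of the table. Means of 1000 or more were reached by 16, or 44.4%, against 35.0% of all genes. Above the table's median of 237 normalized counts stood 27 of 36 (75%), against 50% of all genes. Above 1082, the median over genes with a mean of 10 or more, stood 15 of 36 (41.7%), against 33.8% of all genes. The median of the 36 genes was 693 normalized counts. Together they took 0.138% of the summed normalized counts of the table. The counting error of a level was 1.55% at the median gene.

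**Figure D1:**
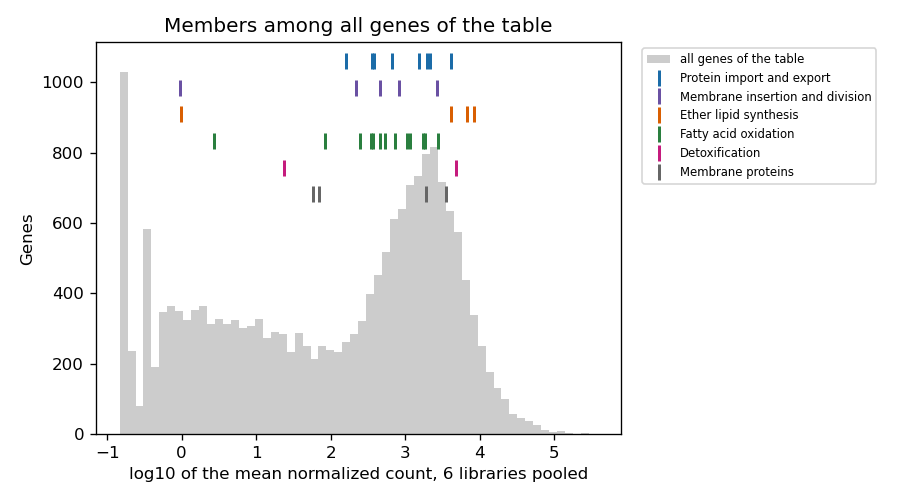
Mean normalized count over the 6 pooled libraries on a log10 axis (horizontal) against the number of genes (vertical). Grey bars are all 19078 genes, and each coloured tick is 1 of the 36 members, drawn in a row for its role, with no meaning to the height. Most ticks lie under the right-hand peak, and *Far2*, *Pex11g* and *Ehhadh* lie apart at the left.

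Because longer transcripts collect more reads, levels of different genes are compared below as mean normalized counts per kb of exons, with exonic lengths taken over all GENCODE transcripts of a gene. On this scale 24 of the 36 genes stood above the median of 107 per kb over the 16521 genes with a length. The 36 levels ran from 0.132 per kb for *Far2* to 1850 per kb for *Cat*.

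**Figure D2:**
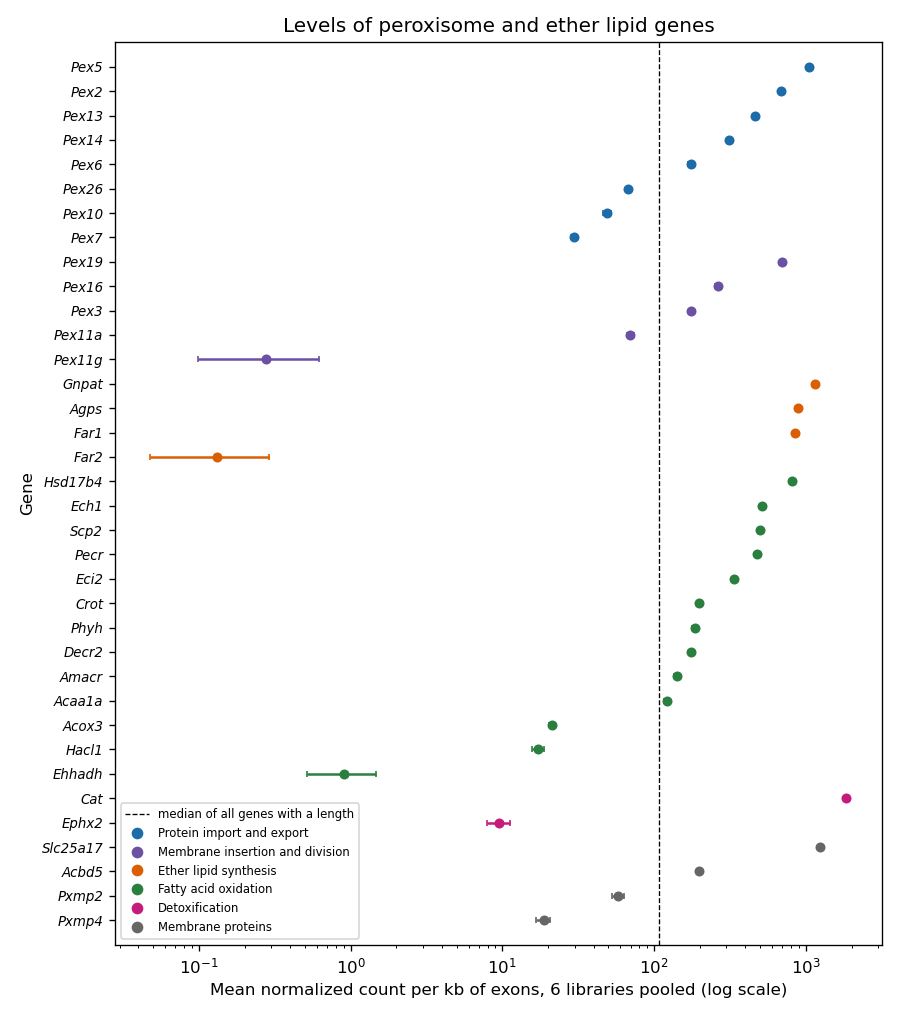
Mean normalized count per kb of exons over the 6 pooled libraries (horizontal, log scale) for each of the 36 genes (vertical), coloured by role. Bars are 95% counting intervals, mostly narrower than the points, and the dashed line is the median of 107 per kb. *Cat*, *Slc25a17* and *Gnpat* are highest, and *Ehhadh*, *Pex11g* and *Far2* lie below 1 per kb.

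The enzymes that make ether lipids summed to 2867 per kb over 4 genes, the highest sum of the 13 roles, with *Gnpat*, *Agps* and *Far1* high and *Far2* near absence. Roles held from 1 to 5 genes, so a sum grows with the number of genes listed. By the median per kb, detoxification with 2 genes stood higher, at 930 against 863. *Gnpat*, whose product acylates dihydroxyacetone phosphate in the opening step of the pathway, had a mean of 4092 normalized counts (interval 4041 to 4143), which is 1141 per kb. It lies on chromosome 8 from 124863033 to 124890057. *Agps*, on chromosome 2 from 75832177 to 75931350, encodes the synthase that exchanges the acyl chain for a fatty alcohol and so forms the ether bond. Its mean of 8314 normalized counts (interval 8241 to 8387) was, before division by length, the highest of all 36 genes and above that of 94.5% of the table, and it came to 882 per kb over a long exonic length of 9421 bases. *Far1*, on chromosome 7 from 113513834 to 113571511, encodes the reductase that supplies the fatty alcohol. It had a mean of 6798 normalized counts (interval 6732 to 6865), or 844 per kb. Per kb these 3 lay between 844 and 1141, and the order of *Gnpat* and *Agps* depended on the length used. *Gnpat* was 1.29-fold above *Agps* per kb of exons (interval 1.27 to 1.31), but 0.487 times as high per coding length and 0.492 times as high in normalized counts. *Far2*, on chromosome 6 from 148047259 to 148182758, encodes the other fatty acyl-CoA reductase of the mouse, and it was almost without reads.

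Its mean of 0.967 normalized counts could be taken apart into whole reads. Genes with 1 read in a single library give 6 recurrent values of the mean, 1 for each library, and the mean of *Far2* was a sum of these in only 1 way, within 2e-07. It came from 6 reads in 3 of the 6 libraries, at most 3 in any of them. Which of the libraries are *Ms4a15* OE was not inferred. Per kb, *Far1* was 6382-fold above *Far2*, with a counting interval from 2896-fold to 17766-fold. With the longest transcript of each gene as its length the difference was 4930-fold.

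Beyond the peroxisome, ether lipids are completed in the endoplasmic reticulum. Of 13 genes listed for synthesis and turnover of ether lipids outside the peroxisome, 9 were above the table's median of normalized counts. The 3 with the most normalized counts, before division by length, were *Etnk1*, a kinase for ethanolamine, at 11906, *Acsl4*, which activates polyunsaturated fatty acids, at 2298, and *Pcyt2*, which forms CDP-ethanolamine, at 2232. Per kb these stood at 841, 425 and 513, so *Pcyt2* was above *Acsl4* on that scale. *Acsl4* was not among the 3 highest of the 13 genes per kb. Those with the fewest normalized counts, from 1 upwards, were *Gpd1* at 43.1, *Tmem86a* at 60.2 and *Tmem86b* at 85.2. *Tmem189*, the desaturase that makes plasmalogens from alkyl ether lipids, stood at 1096 normalized counts and is named here after its value was seen. *Agmo*, the monooxygenase that cleaves alkyl ether lipids, is listed as *Tmem195* and had 0.147 normalized counts, the value of 1 read in a single library.

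The import machinery was present in all of its parts, at unequal levels. *Pex5*, the PTS1 receptor, had 4136 normalized counts (interval 4085 to 4188), or 1049 per kb. *Pex7*, the PTS2 receptor, had 357 normalized counts (interval 342 to 372), or 29.5 per kb. *Pex5* was thus 35.5-fold above *Pex7* per kb (interval 34.0 to 37.1). The size of this difference rested on the length used, since the exons of *Pex7* span 12092 bases over all its transcripts. Per coding length it was 5.77-fold, and in normalized counts 11.6-fold. *Pex5* was higher on each of these scales. *Pex7* was lower per kb than the 3 enzymes shown above with a PTS2, of which *Agps* had 882, *Phyh* 186 and *Acaa1a* 121 per kb. Before division by length, *Phyh* at 352 normalized counts (interval 337 to 367) overlapped with *Pex7*. Per coding length *Phyh* would fall slightly below *Pex7*, with overlapping intervals, while *Acaa1a* and *Agps* would stay above it.

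*Pex13* and *Pex14* encode the membrane proteins at which the loaded receptor docks. They had 2145 and 1960 normalized counts. *Pex13* was 1.48-fold above *Pex14* per kb of exons (interval 1.44 to 1.52). The ratio was 1.02 per coding length and 1.01 per longest transcript, both within counting error of 1. The order was thus resolved only per kb of exons and in normalized counts, and the size of the difference depended on the gene model. *Pex2* and *Pex10* encode subunits of the ubiquitin ligase that marks the receptor for recycling. *Pex2* stood at 1555 normalized counts and *Pex10* at 162, a 13.9-fold difference per kb (interval 13.1 to 14.9) and 10.2-fold per coding length. *Pex6*, an ATPase that pulls the receptor back out, had 660 normalized counts, and *Pex26*, its anchor in the membrane, had 384. These are 174 and 67.7 per kb.

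The peroxins that insert membrane proteins were all above the table's median per kb. *Pex19*, the soluble chaperone of membrane proteins, had 2669 normalized counts, or 700 per kb. *Pex16* had 466 normalized counts, or 263 per kb, and *Pex3*, the docking factor for PEX19, had 826, or 174 per kb. *Pex19* and *Pex2* were neighbours in the order of levels with overlapping counting intervals.

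Of the division factors, *Pex11a* stood at 222 normalized counts (interval 210 to 234), or 69.7 per kb. *Pex11g* was close to absent with a mean of 0.946 normalized counts, which resolved into 6 reads in 4 of the 6 libraries. Per kb, *Pex11a* was 250.2-fold above *Pex11g* (interval 112 to 708).

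Straight-chain oxidation in the peroxisome uses a bifunctional enzyme for its middle steps, of which mice have 2 kinds. *Hsd17b4*, which also handles branched chains and bile acid precursors, had 2749 normalized counts (interval 2707 to 2791), or 808 per kb. *Ehhadh*, the other kind, had a mean of 2.70 normalized counts (interval 1.55 to 4.37), resolved into 16 reads spread over all 6 libraries with at most 4 in any of them. Per kb *Hsd17b4* was 891-fold higher (interval 550.4 to 1554). *Acaa1a*, the thiolase of the last step, had 533 normalized counts, or 121 per kb. Its close relative *Acaa1b* had 0.335. How reads shared by these paralogs were assigned was not checked, so the division between them is uncertain.

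The genes for branched chains covered a wide range. *Scp2*, whose product includes a thiolase and a sterol carrier, was the highest at 1733 normalized counts, or 498 per kb. *Phyh*, which hydroxylates phytanic acid, stood at 352 normalized counts, or 186 per kb, and *Amacr*, the racemase of branched acyl-CoAs, at 369, or 142 per kb. *Hacl1*, the lyase that follows *Phyh* in alpha-oxidation, was lower at 85.3 normalized counts (interval 78.1 to 93.1), or 17.3 per kb. *Acox3*, an oxidase of branched acyl-CoAs, had 245 normalized counts, or 21.3 per kb over exons of 11521 bases.

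All 4 enzymes that deal with double bonds were above the table's median per kb. *Ech1*, a dienoyl-CoA isomerase, had 1168 normalized counts and 511 per kb, and *Eci2*, an enoyl-CoA isomerase, had 1867 normalized counts and 337 per kb. *Pecr*, a trans-enoyl-CoA reductase, had 727 normalized counts, or 479 per kb, and *Decr2*, a dienoyl-CoA reductase, had 466, or 176 per kb. *Ech1* overlapped with *Scp2* in counting intervals, as *Scp2* did with *Pecr* and *Pecr* with *Pex13*. *Crot*, which passes shortened chains to carnitine, had 1077 normalized counts, or 197 per kb.

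*Cat*, the catalase that breaks down hydrogen peroxide, was the highest of the 36 genes per kb, with 4834 normalized counts (interval 4779 to 4890) and 1850 per kb. It lies on chromosome 2 from 103453849 to 103485160 and stood above 93.2% of genes on that scale, 1.49-fold above the next member. This rank rested on exonic length. Per coding length *Far1*, *Agps* and *Slc25a17* would stand above *Cat*, and per longest transcript *Slc25a17* would. In normalized counts *Agps* and *Far1* were higher. *Ephx2*, a soluble epoxide hydrolase, was among the lowest at 23.5 normalized counts (interval 19.8 to 27.7), or 9.47 per kb.

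Among membrane proteins, *Slc25a17*, a carrier of cofactors, had 3537 normalized counts and 1243 per kb, second to *Cat* per kb. *Acbd5*, an acyl-CoA binding protein that tethers peroxisomes to the endoplasmic reticulum, had 1929 normalized counts, or 197 per kb. *Pxmp2*, a channel protein, had 69.5 normalized counts (interval 63.0 to 76.5), and *Pxmp4* had 58.2 (interval 52.2 to 64.6). In normalized counts *Pxmp2* was 1.195-fold above *Pxmp4*, with overlapping intervals of the levels. Per kb *Pxmp2* was 3.10-fold higher (interval 2.68 to 3.59), and per coding length 1.31-fold.

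**Figure D3:**
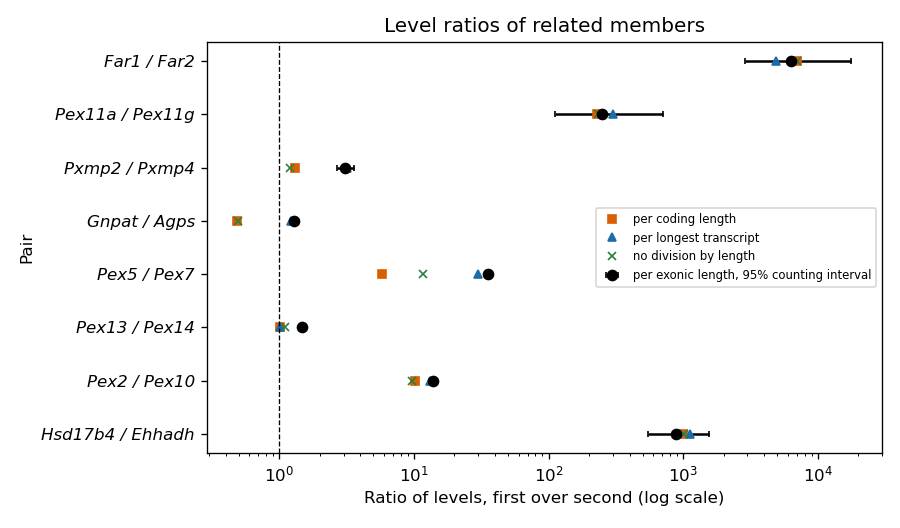
Ratio of the level of the first over the second gene (horizontal, log scale) for 8 pairs (vertical). Black points are per kb of exons with 95% counting intervals, and the other symbols divide by coding length, by the longest transcript, or by no length. The ratios of *Far1* to *Far2*, *Hsd17b4* to *Ehhadh* and *Pex11a* to *Pex11g* exceed 100 on every scale, whereas *Gnpat* to *Agps* lies on either side of 1.

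In the order of levels per kb, the 6 highest genes, from *Cat* through *Slc25a17*, *Gnpat*, *Pex5* and *Agps* to *Far1*, were each separated from the next by more than counting error. *Crot*, *Acbd5*, *Phyh*, *Decr2*, *Pex3* and *Pex6* formed a run between 174 and 197 per kb in which every neighbour overlapped. So did *Acox3*, *Pxmp4* and *Hacl1*, between 17.3 and 21.3 per kb, and *Ehhadh*, *Pex11g* and *Far2* at the low end. The genes were spread over 17 chromosomes, and chromosome 2 held 6 of them, *Pex16*, *Agps*, *Cat*, *Phyh*, *Pxmp4* and *Acbd5*.

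The enzymes with a strict PTS1 had a median of 489 per kb, with a range from 0.906 to 1141, and the 11 other enzymes one of 142, with a range from 0.132 to 1850. The ranges overlapped. Outside the 36 genes, 63 genes of the table with a length ended in a strict PTS1, with a median of 80.6 per kb. Of the wider list of 52 other peroxisomal genes, 48 reached 1 normalized count and 30 (57.7%) stood above the table's median. The 3 with the most normalized counts, before division by length, were *Fis1*, a fission adaptor shared with mitochondria, at 5831, *Trim37*, a ubiquitin ligase, at 4708, and *Prdx5*, a peroxiredoxin, at 4395. Per kb these stood at 3402, 653 and 2055, so *Prdx5* was above *Trim37* on that scale. *Trim37* was not among the 3 highest of this list per kb. Those with the fewest normalized counts, from 1 upwards, were the thioesterases *Acot3* at 1.11 and *Acot12* at 1.42, and *Pipox*, an oxidase of pipecolic acid and sarcosine, at 1.72.

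The cell type given in the labels was checked against markers. All 12 fibroblast markers were above the table's median, from 278 normalized counts for *Pdgfra* to 135155 for *Col1a2*. Of 9 epithelial markers 1 exceeded 100 normalized counts, *Krt14* at 170, and *Epcam* had 0.176. Of 6 myeloid markers 3 exceeded 100, led by *Lyz2* at 534, whereas *Ptprc*, found on white blood cells, had 11.1. Endothelial markers were led by *Cdh5* at 107, and no adipocyte or hepatocyte marker reached 100. Their part in the levels above was not tested.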

How the data were processed

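RNAseq of poly(A)-selected RNA was performed by the authors, who aligned reads with STAR to mm10 with UCSC knownGene annotation, counted them with HTSeq-count and compared groups with DESeq2. The submitters' processing notes name TopHat, Cufflinks and Cuffdiff as well. The signal in the deposited table is the mean over 6 libraries of counts divided by size factors. Its other columns hold the authors' comparison (log2 fold change, standard error, p-value, adjusted p-value, direction) and were not used. Counts per library were not used, and the planned count test of *Ms4a15* OE against control was therefore not run.

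Size factors, taken from the recurrent means that 1 read gives, were 0.887 to 1.14, and 6 times a mean is thus close to its number of reads. Library totals are unknown. All 4616 genes with a mean under 3 resolved into whole reads, 98.7% in 1 way, within 2e-07. A count of 0 would allow a mean of up to 0.5 (3 counts over 6 libraries).

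Exonic lengths, coding sequences and positions came from GENCODE M21 (GRCm38, the assembly of mm10), and 86.6% of genes matched by symbol. Coding sequences were those of the principal transcript, translated here. The planned protein table was not used. Older symbols came from RefSeq. Every member was named with its level, and of the wider lists by normalized count the highest 3 and lowest 3 with a mean of at least 1. Outside this rule *Tmem189*, *Agmo* and *Acaa1b* were named as well. Members and lists were chosen with earlier results of these data known. Only the resolving of means into reads and the counting intervals were tested on simulated data. The simulated counts were Poisson draws, without spread between replicates. Python 3.11.15, numpy 2.4.6, scipy 1.17.1, biopython 1.88 and matplotlib 3.10.9 were used. Some items of the wider lists are not reported here.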

Additional observations from a re-analysis of the deposited data

How the results depend on the processing

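The 27 genes above the table's median became 15 when the median was taken over genes with means of 10 or more, since that median is higher, and 24 per kb of exons. Of all genes, 33.8% stood above that higher median. The 34 genes with at least 1 normalized count became 33 (91.7%) at a minimum of 10 and 29 (80.6%) at 100. Of all genes, 67.7% reached a mean of 10 and 54.7% a mean of 100. The 8 enzymes with a strict PTS1 became 14 with the wider set of residues, and the 5 genes with a PTS2 match became 7 in 60 residues. Over all genes with a coding sequence, the shares rose from 0.461% to 2.49% and from 1.16% to 1.97%. The first gene of a pair was higher in 8 of 8 pairs per exonic length and per longest transcript, an alternative chosen after seeing the data, and in 7 per coding length or with no length. The exception was *Gnpat* over *Agps*, whose log2 ratio of 0.37 turned to -1.04 per coding length and -1.02 with no division. Over the 8 pairs and 3 other lengths, 11 ratios stayed inside their counting interval, 11 moved outside it with the same direction and these 2 reversed. Among those that moved, *Pex13* over *Pex14* was 1.02 per coding length and 1.01 per longest transcript, within counting error of 1. Pooled levels do not separate *Ms4a15* OE from control, and depth limits *Far2* and *Pex11g* most, with 6 reads each. Other normalizations, another count test, no filter on low counts and leaving out each replicate were not run. No paired analysis was possible because the means used here pool all 6 libraries.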
